A study of Homo sapiens with 6 samples.

Results

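The microRNA machinery was followed through 10 genes: the nuclease gene DROSHA and its partner DGCR8, the exporter XPO5, DICER1, the Argonautes AGO1, AGO2, AGO3 and AGO4, and the GW182 genes TNRC6A and TNRC6B. They were taken by their symbols from the 38637 genes of the expression table, and all 10 were among the 13980 genes that averaged 1 TPM or more and were tested. TPM is a read count set per transcript length and scaled to one total in every library. The cells were HCCLM3-SR, a human hepatocellular carcinoma line made resistant to sorafenib, a kinase inhibitor. All 6 libraries came from cells under 5 μM sorafenib and 3 days of siRNA, with si-cDCBLD2 against the circular RNA of the DCBLD2 gene in 3 of them and the control siRNA (siCTRL) in the other 3. One resistant line was used, and the sources used here do not tie these replicate libraries to separate cultures, so p-values measure only the spread between these libraries. The study follows cDCBLD2 as a possible sponge of a microRNA, miR-345-5p, and the comparison here asks whether the mRNAs of the machinery that makes and uses microRNAs differed after the knockdown.

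A microRNA begins as a hairpin in a longer nuclear transcript. DROSHA cuts the hairpin out while DGCR8 holds the RNA, and the pair is called the Microprocessor. XPO5 carries the hairpin into the cytoplasm, where DICER1 trims it to a short duplex. An Argonaute protein keeps one strand and uses its seed, bases 2 to 8, to pair with target mRNAs, and AGO2 is the Argonaute best known for cutting a perfectly paired target, as an siRNA does. GW182 proteins bind Argonaute and recruit the enzymes that remove the poly(A) tail. In liver, as in other tissues, these proteins are shared by all canonical microRNAs.

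Mature microRNAs were not measured in these poly(A) libraries, and the gene MIR345 was listed at 0 TPM in all 6. The sequence at the centre of the study's model is shown with its seed in capitals, followed by the stretches of the machinery's own mRNAs that hold the 7 bases complementary to that seed, because these are the places where the microRNA and its machinery could meet by sequence. The microRNA is from RefSeq (GRCh38.p14, chr14:100307876-100307897, plus strand). The stretches are from the GRCh38 transcripts of GENCODE release 29, 5′ to 3′ on the mRNA, with the match in capitals and 10 bases on either side.
hsa-miR-345-5p: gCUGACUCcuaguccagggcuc
DICER1, coding sequence, exon 22: gctggcgtggGAGTCAGatcacttcct
TNRC6A, coding sequence, exon 16: aaagggcgcaGAGTCAGagaagcgtgc
TNRC6B, coding sequence, across the junction after exon 8: tgggattgctGAGTCAGactgaagata
AGO1, 3′ UTR, exon 19: gtaagaattgGAGTCAGatgtggtttt
AGO3, 3′ UTR, exon 19: cttttgttctGAGTCAGggtctcactc

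The matches lay at chr14:95105092-95105098 (minus strand) in DICER1, chr16:24806235-24806241 (plus strand) in TNRC6A, chr1:35929710-35929716 (plus strand) in AGO1 and chr1:36069122-36069128 (plus strand) in AGO3. The TNRC6B match was split by an intron between positions 40277151 and 40278004 of chromosome 22 (plus strand). The letters GAGTCAG, read on the mRNA strand only, stood in the coding sequence of 13.15% and the 3′ UTR of 9.098% of the 11739 tested coding genes. These 5 transcripts are long, and among genes whose coding sequence was within 20% of the same length, 42.26% matched for DICER1, 41.53% for TNRC6A and 41.45% for TNRC6B. Among genes with a 3′ UTR of like length the share was 49% for AGO1 and 80.77% for AGO3. A match is a string of letters, and no binding was measured.

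DROSHA stands on chromosome 5 from 31400497 to 31532196 (minus strand) of GRCh38, and shared no exon bases with another gene. Its level was 18.6, 16.1 and 14.7 TPM in si-cDCBLD2 replicates 1, 2 and 3. The siCTRL replicates, in the same order, had 26.0, 20.1 and 22.9 TPM. All 3 knockdown values were under the lowest control value. The means were 16.5 ± 1.95 TPM and 23.0 ± 2.95 TPM (SD, n = 3 each), so the knockdown level was 71.6% of the control (exact permutation test, two-sided, p = 0.1, which is the lowest possible with 3 and 3 libraries). The log2 fold change on log2(TPM + 1), si-cDCBLD2 minus siCTRL, was -0.46 ± 0.13 (SE; limma adjusted p = 0.101). Blocking on the replicate number narrowed the SE to 0.0776 and took the adjusted p from limma to 0.0114. The block leaves each fold change as it is. With the GC-content offset added, DROSHA was at -0.25 and no longer passed (limma adjusted p = 0.0563).

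DGCR8, the other part of the Microprocessor, was not lower after knockdown. It lies on chromosome 22 from 20080232 to 20111877 (plus strand) and was at 25.9, 18.5 and 18.8 TPM after knockdown and at 23.4, 18.6 and 18.2 TPM in control cells. The groups overlapped, with replicate 1 the highest in both. Means were 21.1 ± 4.20 and 20.0 ± 2.93 TPM (SD, n = 3 each), and the log2 fold change was 0.06 with a 95% interval from -0.33 to 0.45, or from -0.09 to 0.22 with the block (limma adjusted p = 0.836 and 0.478). Its sign turned to -0.09 without knockdown replicate 1. Exon bases of DGCR8 are shared with genes on the other strand over 538 positions, among them TRMT2A, with a mean of 51.1 TPM after knockdown and 45.6 TPM in control cells. The strand used in counting is not given in the sources used here, and the part of TRMT2A reads in the DGCR8 values was not tested.

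DROSHA and DGCR8 changed places in the order of TPM. That order depends on the gene lengths behind the TPM, which are not given in the sources used here. Recovered reads, which are not set per length, put DROSHA above DGCR8 in knockdown replicates 2 and 3 (939 against 790 and 798 against 748). In knockdown replicate 1 DROSHA was below DGCR8 (797 against 816). In control cells there was more DROSHA than DGCR8 per length, with ratios of TPM of 1.11, 1.09 and 1.26 in replicates 1, 2 and 3. After cDCBLD2 knockdown the ratios were 0.717, 0.872 and 0.783, and the groups did not overlap. The mean ratio was 0.791 ± 0.0780 after knockdown and 1.15 ± 0.0946 in control cells (SD, n = 3 each; two-sided exact permutation test, p = 0.1, adjusted p = 0.25 over 5 shares and ratios). This ratio, and the other ratios below, were chosen after the values had been seen. A ratio within a library is free of any scaling common to all genes, but not of length or GC effects that differ between the genes. The transcripts differed in GC content, with 45.8% for DROSHA and 54.7% for DGCR8, and with both the GC-content offset and the block DROSHA was at -0.25 and DGCR8 at 0.04.

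The DGCR8 mRNA is itself known as a Microprocessor substrate, since hairpins lie within it. The second exon of its transcript holds the mature arms of miR-1306 in the coding sequence and of miR-3618 in the 5′ UTR. The arms of miR-1306 are shown because they are read from the same exon bases as DGCR8 (RefSeq, GRCh38.p14, plus strand), miR-1306-5p at chr22:20086072-20086093 and miR-1306-3p at chr22:20086112-20086129.
hsa-miR-1306-5p: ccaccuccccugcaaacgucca
hsa-miR-1306-3p: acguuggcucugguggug
Both arms were found letter for letter in the transcript. Cleavage of the DGCR8 mRNA was not measured.

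XPO5, the exporter, was the most abundant of the 10 mRNAs. It stands on chromosome 6 from 43522330 to 43576075 (minus strand) and was at 42.1, 37.4 and 33.1 TPM in the knockdown replicates against 49.4, 46.8 and 48.5 TPM in the controls. The groups did not overlap, and the control libraries were close together (48.2 ± 1.31 against 37.5 ± 4.50 TPM, SD, n = 3 each). The knockdown level was 77.8% of the control, and its log2 fold change was -0.36 with an SE of 0.10. The limma adjusted p was 0.0974, or 0.0176 in the blocked fit. XPO5 still passed, at -0.25, in the blocked fit with the GC-content offset (limma adjusted p = 0.0332). XPO5 exons share 348 bases with POLR1C on the other strand, which was at 22.8 to 25.2 TPM after knockdown and 22.4 to 25.5 TPM in control cells.

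DICER1, the nuclease that makes the short duplex, had the lowest fold change of the 10. On chromosome 14 from 95086228 to 95158010 (minus strand), it was at 3.53, 1.30 and 1.68 TPM after knockdown and at 5.63, 3.41 and 3.77 TPM in control cells. Knockdown replicate 1 lay above control replicate 2, so the groups overlapped, while each knockdown library was below the control of its own number. The within-pair log2 changes were -0.55, -0.94 and -0.83. The means were 2.17 ± 1.19 and 4.27 ± 1.19 TPM (SD, n = 3 each; two-sided exact permutation test, p = 0.2), or 50.8% of the control. For a log2 fold change of -0.77 the SE was 0.29 without the block (limma adjusted p = 0.160) and 0.125 with it (limma adjusted p = 0.0102), and 3.29% of all tested genes had a lower one. Its value under the GC-content offset was -0.38 with the block (limma adjusted p = 0.0373). Without knockdown replicate 1 the fold change was -1.06 (limma adjusted p = 0.0225), which passed a log2 fold change of 1 in size as well, and without replicate 1 of both groups it was -0.89 (limma adjusted p = 0.0112). With any one of the other 5 libraries left out it lay between -0.89 and -0.58, with limma adjusted p from 0.237 to 0.393. These values rest on 226 to 699 reads per library. DICER1-AS1, on the other strand with 80 shared exon bases, was at 3.41, 9.12 and 10.1 TPM after knockdown and 6.28, 6.51 and 8.09 TPM in control cells, and its part in the result was not tested.

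**Figure D1:**
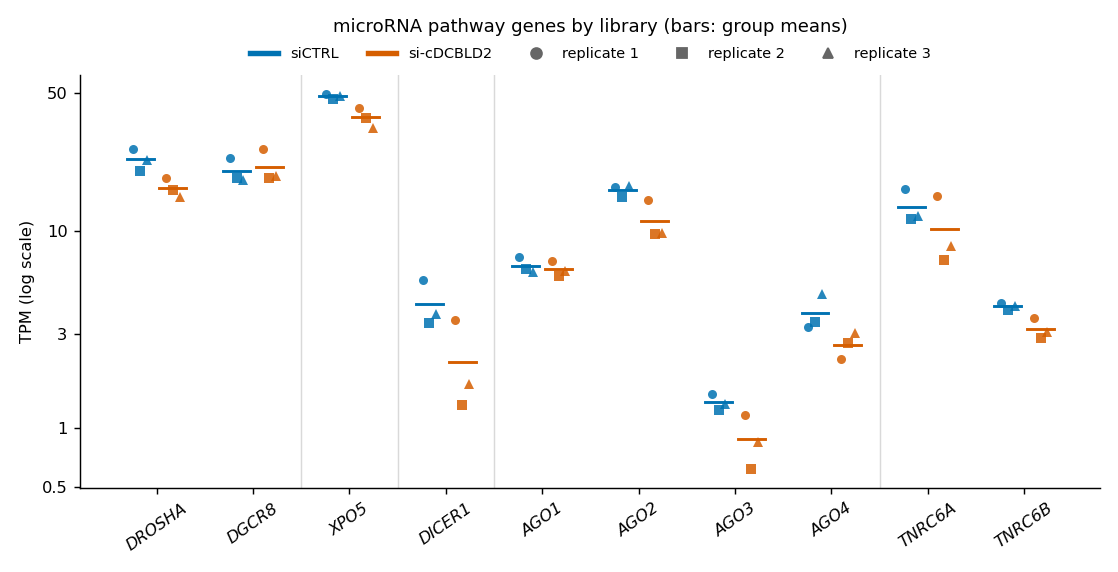
Level of each of the 10 mRNAs in TPM on a log axis, with control libraries in blue and si-cDCBLD2 libraries in orange, replicates 1 to 3 as circle, square and triangle, and group means as bars. DROSHA, XPO5, AGO2, AGO3, AGO4 and TNRC6B have no overlap between groups, and replicate 1 is the highest library for most genes in both groups.

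Replicate 1 was the highest library in 9 of the 10 genes after knockdown and in 8 of 10 in control cells. AGO4 was the exception in knockdown cells, where replicate 1 was its lowest library. In control cells AGO2 and AGO4 were highest in replicate 3. For most of these genes replicate 1 thus stood above the rest in both groups. The block takes up such differences by replicate number, but the sources used here do not say that the numbers mark pairs. The share of all tested genes with this pattern was not counted.

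AGO2 was the most abundant Argonaute mRNA, on chromosome 8 from 140520156 to 140635619 (minus strand). It was at 14.3, 9.65 and 9.69 TPM after knockdown and at 16.7, 14.8 and 16.8 TPM in control cells. The highest knockdown library lay just below the lowest control library. The means were 11.2 ± 2.66 and 16.1 ± 1.13 TPM (SD, n = 3 each), 69.6% of the control, and its log2 fold change was -0.51 with an SE of 0.16. Limma gave an adjusted p of 0.124, or 0.0235 in the blocked fit. Adding the GC-content offset to the block moved AGO2 to -0.32 (limma adjusted p = 0.0512). An offset for transcript length, without the block, put it at -0.11 (limma adjusted p = 0.537).

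AGO4, AGO1 and AGO3 lie in this order in tandem on the plus strand of chromosome 1, from 35808172 to 36072500. Exons of AGO1 and AGO3 share 396 and 86 bases with genes on the other strand, and those of AGO2 share 47 bases with a gene on its own strand. AGO1 was at 7.01, 5.92 and 6.24 TPM after knockdown and at 7.38, 6.36 and 6.17 TPM in control cells, and the groups overlapped. Its means were 6.39 ± 0.557 and 6.64 ± 0.651 TPM (SD, n = 3 each), 96.2% of the control, and its log2 fold change of -0.05 had a 95% interval from -0.33 to 0.23, or from -0.26 to 0.16 with the block (limma adjusted p = 0.823 and 0.687). Its sign depended on scaling, at 0.01 with upper-quartile scaling and 0.14 with the GC-content offset.

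AGO3 was the least abundant of the 10 mRNAs. It averaged 1.11 TPM over all 6 libraries and passed the filter of 1 TPM only through the control libraries. Its values were 1.16, 0.618 and 0.845 TPM after knockdown and 1.48, 1.23 and 1.32 TPM in control cells, with no overlap. The means were 0.876 ± 0.274 and 1.35 ± 0.127 TPM (SD, n = 3 each), 65.1% of the control, and the log2 fold change of -0.33 did not pass in either fit (limma adjusted p = 0.239, and 0.123 with the block). The pseudocount of 1 understates the change of a gene at this level. The direction for AGO3 flipped under the GC-content offset, where its value was 0.07.

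AGO4 was at 2.23, 2.68 and 3.02 TPM after knockdown and at 3.25, 3.43 and 4.80 TPM in control cells, and every knockdown library was the lower. The means were 2.64 ± 0.399 and 3.82 ± 0.848 TPM (SD, n = 3 each), 69.1% of the control, and limma put AGO4 at -0.40 on the log2 scale, with an adjusted p of 0.198, or 0.0423 in the blocked fit. The same fit with the GC-content offset put it at -0.13 (limma adjusted p = 0.364). Without control replicate 3, the highest library, and without the block it was at -0.26.

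The 4 Argonaute mRNAs together summed to 24.7, 18.9 and 19.8 TPM after knockdown and to 28.8, 25.8 and 29.1 TPM in control cells, with no overlap (two-sided exact permutation test, p = 0.1). Within this sum AGO2 made up 57.9%, 51.1% and 49.0% after knockdown and 57.9%, 57.3% and 57.8% in control cells. The shares overlapped through knockdown replicate 1, and their means of 52.7 ± 4.65% and 57.7 ± 0.311% (SD, n = 3 each) gave p = 0.3 in a two-sided exact permutation test, which cannot go below 0.1 here (adjusted p = 0.6 over the 2 shares planned). Replicates 2 and 3 had the lower share after knockdown, and replicate 1 had the same to 3 digits. The difference of -5.01 percentage points was -7.62 without knockdown replicate 1 and -3.17 without knockdown replicate 3. Counted in recovered reads instead of TPM, the AGO2 shares of 64.3%, 59.7% and 57.3% lay below the control shares of 64.6%, 64.7% and 66.0%. AGO1 made up 28.4%, 31.4% and 31.5% of the sum after knockdown and 25.7%, 24.6% and 21.2% in control cells. The AGO2 to AGO1 ratio of TPM was 2.04, 1.63 and 1.55 after knockdown and 2.26, 2.33 and 2.73 in control cells (two-sided exact permutation test, p = 0.1, adjusted p = 0.25 over the 5). AGO1 and AGO2 have nearly the same transcript GC content, 46.4% and 46.6%, and transcripts of 13708 and 14581 bases. Whether GC or length effects have a part in this ratio was not tested.

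**Figure D2:**
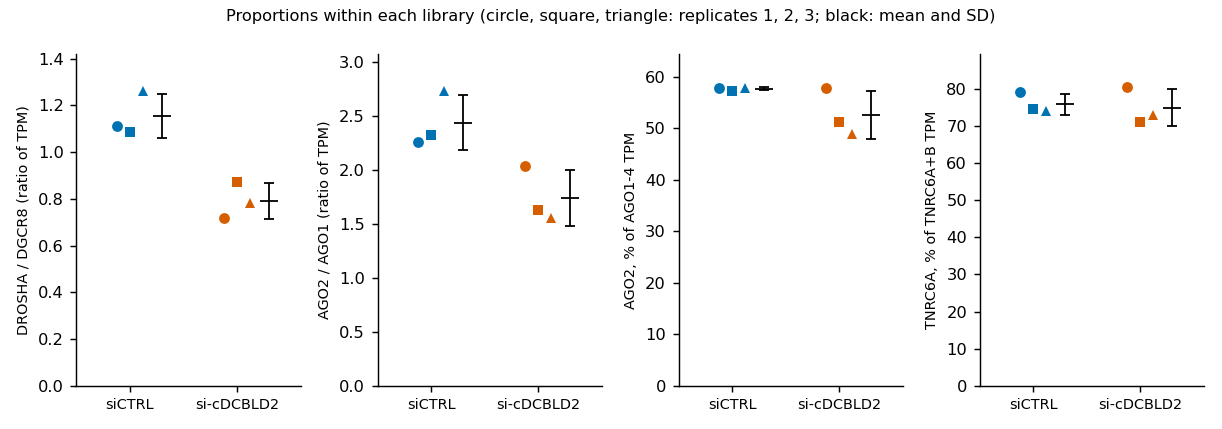
Ratios and shares of TPM within each library, with controls in blue, si-cDCBLD2 in orange, replicates 1 to 3 as circle, square and triangle, and mean ± SD in black. The DROSHA to DGCR8 ratio and the AGO2 to AGO1 ratio are lower in all 3 knockdown libraries than in all 3 controls, while the AGO2 share and the TNRC6A share overlap.

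TNRC6A and TNRC6B encode GW182 proteins, the link from Argonaute to deadenylation. TNRC6A, on chromosome 16 from 24610209 to 24827632 (plus strand), was at 15.0, 7.07 and 8.32 TPM after knockdown and at 16.3, 11.5 and 11.8 TPM in control cells. Its groups overlapped through knockdown replicate 1, with within-pair log2 changes of -0.11, -0.63 and -0.46. The means were 10.1 ± 4.29 and 13.2 ± 2.70 TPM (SD, n = 3 each), 76.7% of the control, and limma put TNRC6A at -0.40 on the log2 scale, with an adjusted p of 0.390, or 0.0450 in the blocked fit. There the GC-content offset brought it to -0.20 (limma adjusted p = 0.172). Without the block TNRC6A was at -0.70 with knockdown replicate 1 left out (limma adjusted p = 0.0359), at -0.20 with knockdown replicate 2 left out and at -0.25 with control replicate 1 left out.

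TNRC6B, on chromosome 22 from 40044817 to 40335808 (plus strand), was at 3.62, 2.86 and 3.07 TPM after knockdown and at 4.32, 3.95 and 4.15 TPM in control cells. The groups did not overlap (3.18 ± 0.391 and 4.14 ± 0.186 TPM, SD, n = 3 each, 77.0% of the control). The log2 fold change of -0.30 did not pass (limma adjusted p = 0.183, and 0.0717 with the block), and with the GC-content offset it was -0.05. TNRC6A held 74.9 ± 4.99% of the summed TPM of the pair after knockdown and 75.9 ± 2.81% in control cells (SD, n = 3 each; two-sided exact permutation test, p = 0.8, adjusted p = 0.8 over the 2 shares).

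**Figure D3:**
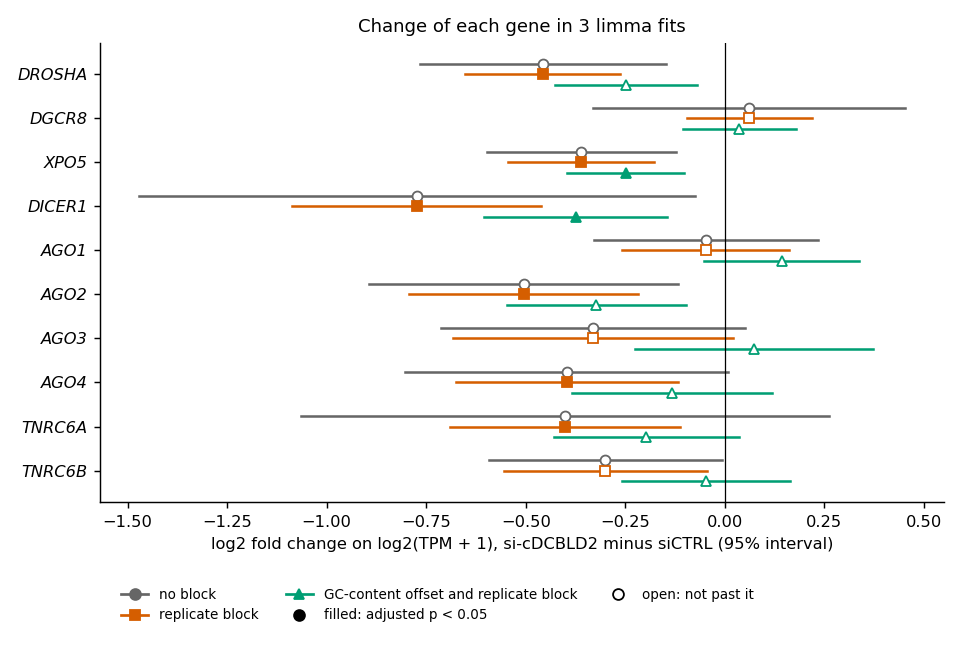
Log2 fold change of each gene on log2(TPM + 1), si-cDCBLD2 minus siCTRL, with its 95% interval, without the block in grey, with the replicate block in orange and with the GC-content offset and the block in green. Filled symbols pass a limma adjusted p of 0.05, as 6 genes do with the block, 2 (DICER1 and XPO5) with the offset as well and 0 without the block.

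Read over the 10 genes, 9 had a lower mean after knockdown, against 62.4% of all tested genes. Their median log2 fold change was -0.38, and that of all tested genes was -0.08. The groups did not overlap, with knockdown lower, for 6 of the 10 (DROSHA, XPO5, AGO2, AGO3, AGO4 and TNRC6B) against 22.3% of tested genes. With knockdown higher the count was 0 of 10 against 9.58%. AGO3 passed the filter only through its control libraries, so its place in these counts depends on the group where it was higher. Without the block limma called 0 of the 10 in either direction at an adjusted p of 0.05, where 0.629% of tested genes were called lower and 0.250% higher, and 5 of the 10 had a p under 0.05 before adjustment, against 26.1% of tested genes. None passed a log2 fold change of 1 as well, as 0.0787% of genes did downward and 0.0501% upward. Limma-voom on the reads recovered from the TPM values also called 0, against 3.01% of the 15007 genes in that fit, and 6 had p values under 0.05 before adjustment, against 26.5%.

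With the replicate block 6 of the 10 were lower (DROSHA, XPO5, DICER1, AGO2, AGO4 and TNRC6A) and 0 higher, against 25.0% and 9.94% of tested genes. With limma-voom and the block, 8 of the 10 were lower, that is all but DGCR8 and AGO1, against 20.6%. Without knockdown replicate 1, and no block, 5 were lower (DROSHA, XPO5, DICER1, AGO2 and TNRC6A) against 19.8%, and 1 of these, DICER1, also passed the fold threshold, against 2.89%. With any one of the other 5 libraries left out, 0 of the 13980 genes of the whole table were called, so the 0 of 10 there says nothing about these genes. Without replicate 1 of both groups the same 5 were lower against 25.3%. The share of the 10 called was above the background in each of these 4 fits, on a background that was itself high. The 4 fits draw on the same libraries, and none of them has the GC-content offset. With that offset and the block 2 of the 10 were lower, against 13.0%. An offset for transcript length, without the block, left 0 of the 10 called, where 257 of 13163 genes were called. The median of the 10 was -0.10 there.

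The order of levels in control cells was XPO5 (48.2 TPM), DROSHA (23.0), DGCR8 (20.0), AGO2 (16.1), TNRC6A (13.2), AGO1 (6.64), DICER1 (4.27), TNRC6B (4.14), AGO4 (3.82) and AGO3 (1.35), all as mean TPM, which is per length. The control ranges of DROSHA and DGCR8, of AGO2 and TNRC6A, of DICER1 and TNRC6B, and of TNRC6B and AGO4 overlapped, although DROSHA was above DGCR8 and AGO2 above TNRC6A in 3 of 3 control libraries. DICER1 was above TNRC6B in 1 of 3 and TNRC6B above AGO4 in 2 of 3, so the order of these last neighbours was not fixed across libraries. The other neighbours did not overlap in either group. The levels depend on the gene lengths the authors used, which are not given in the sources used here.

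GC content of the transcripts moved with the fold changes of the whole table. Across 13163 genes Spearman's rho of log2 fold change and transcript GC content was 0.638, a description across genes that share the same 6 libraries, and among the 10 genes it was 0.309. The median log2 fold change was -0.40 in the lowest of 5 equal groups by GC content, which holds AGO3 and DICER1, and -0.25 in the next group, which holds AGO1, AGO2, AGO4, DROSHA, TNRC6A and TNRC6B. It was -0.07 in the group with XPO5, 0.04 in the group with DGCR8 and 0.11 in the highest group, which holds none of them. DICER1 at -0.77 was the furthest below the median of its own group, and AGO1 at -0.05 the furthest above. With each library's trend with GC content taken off, the median of the 10 was -0.17. With that offset and the block, DICER1 and XPO5 were lower and 0 were higher, against 13.0% of genes called lower and 11.6% called higher, so the share of the 10 called lower was 2 of 10 beside that background. Whether the trend belongs to the libraries or to the cells was not tested.

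**Figure D4:**
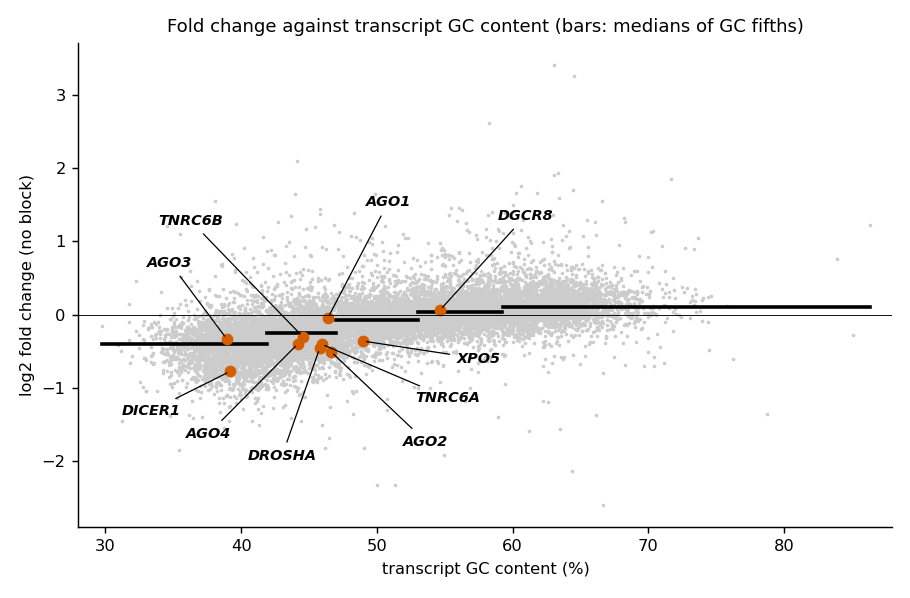
Log2 fold change without the block against transcript GC content in percent for 13163 genes (grey), with the 10 genes in orange and the medians of 5 equal groups by GC content as black bars. Most of the 10 lie among AT-rich transcripts, where the median is -0.40 or -0.25, with DICER1 well below and AGO1 above the bar of its own group.

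Around these genes, 76 partners from 7 lists were measured, of which 72 were tested. Without the block 3 were lower and 0 higher, against 0.629% and 0.250% of all tested genes. The 3 were 2 of the 28 genes of poly(A) binding and decay and 1 of the 10 tested genes of microRNA tailing and turnover. CNOT1, the scaffold of the CCR4-NOT deadenylase that GW182 proteins recruit, was at 59.3, 46.8 and 43.9 TPM after knockdown and 97.9, 86.1 and 96.9 TPM in control cells, a log2 fold change of -0.90 (limma adjusted p = 0.0451). DCP1A, a cofactor of the decapping enzyme, went from 22.0 ± 1.70 TPM in control cells to 12.4 ± 1.09 TPM (SD, n = 3 each; log2 fold change -0.78, limma adjusted p = 0.0451). PARN, a poly(A)-specific ribonuclease that also trims small RNAs, went from 22.7 ± 0.526 to 14.9 ± 0.267 TPM (SD, n = 3 each; log2 fold change -0.57, limma adjusted p = 0.0444). For none of the 3 did the groups overlap, against 22.3% of tested genes with knockdown lower and no overlap. With the GC-content offset and the block CNOT1, DCP1A and PARN were at -0.67, -0.51 and -0.35 (limma adjusted p = 0.00552, 0.00915 and 0.0137). In that fit 13.0% of genes were called lower. The count of 3 rose to 29 without knockdown replicate 1, where 19.8% of tested genes were lower. The count was 0 without any one of the other 5 libraries, where 0 of all 13980 genes were called. It was also 0 with the GC-content offset and no block, where 5 of 13163 genes were called.

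With the block, 46 of the 72 were lower and 3 higher, against 25.0% and 9.94% of all tested genes. With the GC-content offset as well 18 were lower and 3 higher, against 13.0% and 11.6%. The counts by list below stand beside these same shares. Of 9 Microprocessor partners, 6 were lower with the block and 3 with the offset as well. Among partners in export and dicing these counts were 4 and 1 of 6, and among the chaperones that load Argonaute 5 and 3 of 8. With the offset 1 of these chaperones was higher. Of the 28 genes of poly(A) binding, deadenylation, decapping and decay, 18 were lower with the block, with a median of -0.30, and 4 with the offset as well, with a median of -0.07, beside 13.0% of all genes called lower in that fit. Of 10 tested genes of microRNA tailing and turnover 8 were lower and 1 higher with the block, with a median of -0.54, the lowest of the 7 lists, and 5 and 1 with the offset as well, with a median of -0.34. In this list TUT4 and TUT7, which add uridines to microRNA precursors, were at 3.71 ± 1.08 against 7.78 ± 0.710 TPM and 3.48 ± 1.75 against 6.76 ± 1.38 TPM (knockdown against control, SD, n = 3 each). Their log2 fold changes were -0.92 and -0.84 (limma adjusted p = 0.00662 and 0.00973 with the block, and 0.0635 and 0.132 without). LIN28A, LIN28B, TRIM71 and CHRM2 fell under the filter of 1 TPM.

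The 3 higher with the block were ZSWIM8, MOV10 and CTDSP1. With the GC-content offset as well the 3 were ZSWIM8, MOV10 (0.15, limma adjusted p = 0.0425) and DNAJA2, of the chaperone list. DNAJA2 was at 0.25 there (limma adjusted p = 0.0115) and at -0.10 with the block alone (limma adjusted p = 0.183). ZSWIM8, the adaptor of the ubiquitin ligase that degrades Argonaute during target-directed microRNA decay, was at 28.6, 30.0 and 34.8 TPM after knockdown and 23.0, 25.7 and 26.0 TPM in control cells. Its log2 fold change was 0.31 (limma adjusted p = 0.0171 with the block, 0.130 without, and 0.0480 with the GC-content offset and the block). MOV10, an Argonaute-associated helicase, was at 102 ± 4.01 TPM after knockdown and 86.6 ± 1.28 TPM in control cells (SD, n = 3 each; log2 fold change 0.23, limma adjusted p = 0.0148 with the block). CTDSP1, the host gene of miR-26b, was at 0.20 (limma adjusted p = 0.0400 with the block) and at 0.08 with the GC-content offset as well (limma adjusted p = 0.246).

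**Figure D5:**
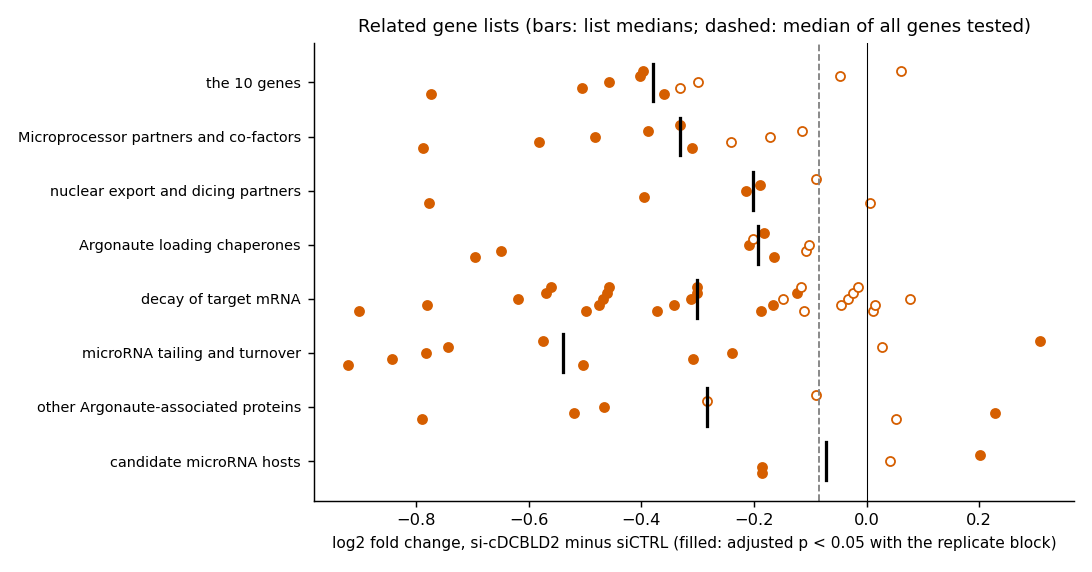
Log2 fold change of the 10 genes and of the 7 related lists, si-cDCBLD2 minus siCTRL, one point per gene, filled where the limma adjusted p with the replicate block is under 0.05. Bars are list medians, from -0.54 in tailing and turnover to -0.07 in the microRNA hosts, and the dashed line is the median of all tested genes, -0.08.

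The circular target itself has no poly(A) tail and was not measured, so the knockdown could not be checked in these libraries. The study checked the knockdown by qRT-PCR. The host mRNA of the circular target, DCBLD2, was at 58.1, 25.9 and 31.6 TPM after knockdown and at 71.5, 48.5 and 50.7 TPM in control cells. Its log2 fold change was -0.61 (limma adjusted p = 0.253 without and 0.0139 with the block). With the GC-content offset it was at -0.30 (limma adjusted p = 0.457 without and 0.0467 with the block). The study itself reported no clear and consistent change of DCBLD2 mRNA or protein across its resistant lines after the knockdown. The libraries held at least 17492673 to 23064302 reads as recovered from TPM steps. Of 9 hepatocyte and hepatoma markers, 4 were at 1 TPM or more in every library, with KRT8 at 2999 to 4413 TPM and HNF4A at 22.9 to 31.3 TPM, while ALB was at 0.189 to 1.58 TPM and APOA1 below 1 TPM throughout. The summed level of the 9, nearly all of it KRT8 and KRT18, was 5840 to 7009 TPM after knockdown and 4830 to 5649 TPM in control cells. Among the others APOB was at 2.71, 0.902 and 1.30 TPM after knockdown and 4.26, 2.72 and 3.35 TPM in control cells, and TTR at 1.64, 1.55 and 1.30 against 0.241, 0.202 and 0.203 TPM. Of 6 markers of immune, fibroblast and endothelial cells, 3 were at 1 TPM or more in every library. PTPRC and VWF were below 1 TPM in every library, while PECAM1, the other endothelial marker, was at 3.63 to 5.64 TPM. COL1A2 was listed at 0 in all but knockdown replicate 1 (2.67 TPM). COL1A1 was at 11.2, 3.61 and 3.64 TPM after knockdown and 3.35, 1.13 and 2.15 TPM in control cells with no overlap. The sum of the 6 was 115 to 133 TPM after knockdown and 97.4 to 119 TPM in control cells, most of it CD68. The part of these markers in the results was not tested. In bulk RNA, fewer cells with a transcript and less of it in each cell cannot be told apart.

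The study also considered other microRNAs, and their seeds are shown because they match members of the machinery.
hsa-miR-490-5p: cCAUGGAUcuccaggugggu
hsa-miR-26a-5p: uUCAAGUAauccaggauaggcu
hsa-miR-26b-5p: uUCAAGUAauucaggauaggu
hsa-miR-93-3p: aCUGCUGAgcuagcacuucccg
The sequences are from RefSeq (GRCh38.p14), and miR-26a-5p and miR-26b-5p share one seed. The letters searched on the mRNA strand were ATCCATG for miR-490-5p, TACTTGA for miR-26 and TCAGCAG for miR-93-3p. The miR-26 match stood in the 3′ UTR of AGO3, TNRC6A and TNRC6B, that of miR-490-5p in the 3′ UTR of AGO2 and XPO5 and the coding sequence of AGO1 and AGO2, and that of miR-93-3p in the 3′ UTR of AGO1, AGO2, AGO3 and TNRC6B. DROSHA, DICER1, XPO5 and TNRC6A held the miR-93-3p match in the coding sequence. Over all tested coding genes, 11.15% held the miR-26 match, 7.854% the miR-490-5p match and 13.37% the miR-93-3p match in the 3′ UTR. In the coding sequence 10.36% and 25.29% held those of miR-490-5p and miR-93-3p. The 3′ UTRs of AGO1, AGO2, AGO3 and TNRC6B are 10921 to 16755 bases long, against a median of 922 over these genes. Shares among genes of like length were not computed for these seeds. DGCR8 and AGO4 held none of the 4 seed matches, counting that of miR-345-5p, in either region. For miR-345-5p, the 1544 tested genes with a coding match had a median log2 fold change of -0.13, the 1068 with a 3′ UTR match -0.11 and the 9283 with neither -0.08. Under the GC-content offset these medians were -0.05, 0.01 and -0.00. With the block, 2 of the 5 members with that match were lower (DICER1 and TNRC6A) and 4 of the 5 without it, against the 25.0% of all tested genes given above.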

How the data were processed

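Poly(A) RNA libraries of HCCLM3-SR cells (3 si-cDCBLD2, 3 siCTRL) were analysed from one gene table. The authors deposited TPM values, which sum to 1e+06 in each library; the submitters' processing notes name fastp 0.20.1, HISAT2 2.1.0, StringTie 2.0 and hg38, and gene lengths, annotation and strand setting are not given in the sources used here. TPM is relative, so a fall of some genes raises others. The members and the gene lists were chosen with earlier results of these data known. Genes named were all 10 members, DCBLD2, every related gene past the adjusted p of 0.05, and the 3 largest changes each way with the block. DNAJA2 is named as well, for its rise with the GC-content offset and the block.

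The 13980 genes averaging 1 TPM or more entered limma 3.58.1 (R 4.3.3) on log2(TPM + 1), with a mean-variance trend, and p-values were adjusted by Benjamini-Hochberg over this whole set. The study names a count-based test and mentions no block; the deposited values are TPM, so limma on TPM was the main test and recovered reads served as an alternative. Deviations of same-numbered libraries from their group means correlated at 0.560, 0.343 and 0.362, so replicate numbers were taken as pairs and the block is given beside results, although libraries 2 and 3 also correlated across numbers (0.247 and 0.215). Whole reads were recovered from TPM steps (tolerance 0.005 reads; 17285 genes, 100% whole), as a lower bound of depth, for limma-voom. GC content came from GENCODE 29 transcripts (25655 genes matched by symbol, 1562 by newer names, 11420 unmatched; 94.2% of tested genes had a value), and the offset was a loess fit per library (span 0.5). The fits were tested on simulated data. Columns of per-sample values without a sample numbered 0.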

Additional observations from a re-analysis of the deposited data

How the results depend on the processing

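Without the block 0 of the 10 genes were lower, against 0.629% of all tested genes. With the replicate block 6 were lower, against 25.0%, and with the GC-content offset and the block 2, against 13.0%. Limma-voom on recovered reads with the block gave 8, against 20.6%. Without replicate 1 of both groups (chosen after seeing the data) 5 were lower, against 25.3%. Leaving out each library in turn gave 0 to 5 lower and 0 to 1 past both thresholds. The higher values came without si-cDCBLD2 replicate 1, where 19.8% of all tested genes were lower and 2.89% passed both thresholds downward. Of related genes 3 were lower and 0 higher without the block, against 0.629% and 0.250% of all tested genes. With the replicate block these counts were 46 and 3, against 25.0% and 9.94%. The GC-content offset and the block gave 18 and 3, against 13.0% and 11.6%. Limma-voom with the block gave 35 and 4, against 20.6% lower, with 5723 of 15007 genes called in either direction. Without replicate 1 of both groups they were 41 and 2, against 25.3% lower, with 4891 of 13980 genes called in either direction. No related gene was lower with no filter or with the GC-content offset alone, where 4 and 5 of all genes were called. With a library left out 0 to 29 were lower and 0 to 2 higher. The upper values came without si-cDCBLD2 replicate 1, where 3420 of 13980 genes were called in either direction. The median of the 10 genes moved from -0.38 to -0.17 with the GC-content offset, with or without the block, and to -0.10 with the length offset. AGO1 turned to 0.014 with upper-quartile scaling, 0.14 with the GC-content offset (with or without the block), 0.34 with the length offset and 0.0434 with limma-voom (0.0436 with the block). AGO3 turned to 0.0727 with the GC-content offset, with or without the block, and to 0.11 with the length offset, where TNRC6B was at 0.13. With a library left out AGO1 ranged from -0.11 to 0.021, DGCR8 from -0.0899 to 0.17 and the TNRC6A share difference from -3.76 to 0.956 percentage points. The causes were not tested. Genes tested fell from 13980 to 13163 with the GC-content or length offset. All 16 alternatives, which draw on the same libraries, kept the direction of DROSHA, XPO5, DICER1, AGO2, AGO4 and TNRC6A. The share of all tested genes that kept theirs was not counted. With the length offset and no block these genes were at -0.25, -0.15, -0.43, -0.11, -0.13 and -0.097, in this order (limma adjusted p from 0.199 to 0.786). With 226 to 699 reads for DICER1 and 129 to 321 for AGO4, counting error adds to the spread of these genes.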
